A study of Mus musculus with 14 samples.

Results

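The 4 peak lists obtained after knockdown of Myolinc were compared with each other. They came from chromatin precipitated with antibodies against MyoD, Myogenin, TDP-43 and RNA polymerase II, the last recognised by phosphate on serine 2 of the C-terminal repeat (Pol II S2P). All 4 libraries of siMyolinc cells that have a peak list were used, of 10 such libraries in the series, and peaks on the mitochondrial genome were dropped. That left 270987 of the 517058 deposited peaks. The TDP-43 list held 24960 peaks, the MyoD list 109522, the Myogenin list 20441 and the Pol II S2P list 116064.

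The cells were C2C12, an established mouse myoblast line that forms myotubes in low serum. They had been transfected with a small interfering RNA at 10 nM against Myolinc, a long noncoding RNA, and were fixed on day 2 of differentiation. Every list was called against IgG, and each antibody had 1 library. No difference between antibodies therefore has a replicate check, no p-value is given, and antibody and library cannot be told apart. The results describe a single cell line, and peak lists measure neither the Myolinc transcript nor marker RNA, so the knockdown and the cell state were not checked.

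TDP-43 is a protein best known for binding RNA rich in UG repeats, and it also binds DNA. MyoD and Myogenin are basic helix-loop-helix factors that pair with E proteins and bind the E-box CANNTG. MyoD acts at the commitment of myoblasts and Myogenin during their differentiation. Pol II S2P is the elongating polymerase and is usually spread along the bodies of transcribed genes.

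The MyoD and Myogenin libraries stood apart from the others. Their peaks were 75 bp wide, against 217 bp for TDP-43 and 219 bp for Pol II S2P. Scores in each list were whole multiples of a single step, which was taken as the value of a single tag. On that reading a median peak held 137 tags for Myogenin and 24 for MyoD, but 11 for Pol II S2P and 7 for TDP-43. If scores are scaled to 10000000 tags, the libraries held 3040124 to 3776207 tags. The Myogenin peaks then took 92.7% of their library's tags on 0.0563% of the genome that the lists reach. The MyoD peaks took 81.4% on 0.302%, the Pol II S2P peaks 37.6% on 0.934%, and the TDP-43 peaks 5.93% on 0.199%. The part of these differences in the overlaps below was not tested.

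Within RefSeq promoter windows (build GRCm38.p6, the assembly of mm10), peaks of 3 antibodies met over the same bases at 4 genes, and the windows show how short the common stretch was. Each window runs from 250 bp before to 50 bp after a transcription start, is written along the gene's strand, and has in capitals the bases lying under peaks of 3 lists. Prf1 encodes perforin, a pore-forming protein of cytotoxic lymphocytes, and its window was the only 1 of 32817 met by all 4 lists (chr10:61297586-61297885, plus strand).
Prf1: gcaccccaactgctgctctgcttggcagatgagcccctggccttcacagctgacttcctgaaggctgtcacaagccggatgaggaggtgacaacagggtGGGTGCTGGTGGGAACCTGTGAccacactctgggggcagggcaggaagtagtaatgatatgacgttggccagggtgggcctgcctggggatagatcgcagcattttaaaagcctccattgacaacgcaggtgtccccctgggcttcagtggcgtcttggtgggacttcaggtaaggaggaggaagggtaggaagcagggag
The capitals in Prf1 are the 22 bases under the TDP-43, Myogenin and Pol II S2P peaks. The MyoD peak lay upstream of them and met the Pol II S2P peak alone. The next 3 windows are those of Myl6b, a myosin light chain gene (chr10:128498636-128498935), Trex2, a 3′ exonuclease gene (chrX:73435294-73435593), and Morf4l2, a chromatin-complex gene (chrX:136741560-136741859). All 3 lie on the minus strand, and their capitals are under TDP-43, MyoD and Pol II S2P peaks.
Myl6b: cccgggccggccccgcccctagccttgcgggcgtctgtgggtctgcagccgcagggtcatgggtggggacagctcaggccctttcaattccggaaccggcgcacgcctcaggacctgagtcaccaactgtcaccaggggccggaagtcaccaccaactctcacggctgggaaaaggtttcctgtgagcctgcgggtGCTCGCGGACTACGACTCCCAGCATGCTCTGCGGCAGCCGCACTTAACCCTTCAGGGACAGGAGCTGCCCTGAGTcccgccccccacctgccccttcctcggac
Trex2: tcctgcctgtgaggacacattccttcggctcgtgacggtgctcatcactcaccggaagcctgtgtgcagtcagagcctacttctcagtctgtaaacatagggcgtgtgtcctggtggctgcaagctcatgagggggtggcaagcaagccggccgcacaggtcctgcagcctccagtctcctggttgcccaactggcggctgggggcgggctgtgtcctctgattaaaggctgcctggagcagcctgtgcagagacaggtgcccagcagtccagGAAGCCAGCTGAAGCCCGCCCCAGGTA
Morf4l2: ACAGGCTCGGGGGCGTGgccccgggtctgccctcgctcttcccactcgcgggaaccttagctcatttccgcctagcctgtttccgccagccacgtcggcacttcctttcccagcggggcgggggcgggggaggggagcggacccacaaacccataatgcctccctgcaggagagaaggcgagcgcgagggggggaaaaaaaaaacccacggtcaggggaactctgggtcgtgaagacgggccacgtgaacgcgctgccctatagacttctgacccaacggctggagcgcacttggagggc
The stretch under 3 peaks was 75 bases in Myl6b, 27 in Trex2 and 17 in Morf4l2. Of the 4 windows, the stretch in Trex2 was the only one to hold an E-box, CAGCTG, inside the bases under 3 peaks. The windows of Prf1, Myl6b and Morf4l2 held 4, 2 and 2 matches to CANNTG outside them. Filip1, the gene that lies beside Myolinc and encodes filamin A interacting protein 1, gives the counterpart: a MyoD and a Myogenin peak stood at the same promoter without touching (chr9:79977833-79978132, minus strand).
Filip1: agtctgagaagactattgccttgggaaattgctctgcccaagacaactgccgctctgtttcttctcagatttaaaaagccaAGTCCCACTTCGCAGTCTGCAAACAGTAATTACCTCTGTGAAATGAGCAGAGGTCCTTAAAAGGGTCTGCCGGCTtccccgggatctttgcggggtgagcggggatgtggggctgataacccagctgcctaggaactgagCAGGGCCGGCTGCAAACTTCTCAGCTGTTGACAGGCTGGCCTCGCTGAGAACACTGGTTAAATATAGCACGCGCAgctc
Here the first run of capitals is the Myogenin peak and the second the MyoD peak. A gap of 65 bases separated them, and the MyoD peak held 1 CAGCTG.

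No list's promoter windows held the general E-box CANNTG more often than all windows beyond counting error, and the intervals of MyoD and, narrowly, Myogenin lay below the share of all windows. The TDP-43 windows held CAGCTG, and the TDP-43, MyoD and Myogenin windows CACCTG, more often than all windows did. CANNTG, read on both strands, stood in 72.3% of all 32817 promoter windows. It stood in 67.6% of the 1643 windows met by MyoD (95% Wilson interval 65.3 to 69.8%) and in 67.7% of the 372 met by Myogenin (62.8 to 72.3%). The CAGCTG form stood in 16.3% of all windows, in 17.3% of those met by MyoD (15.5 to 19.2%), in 17.2% of those met by Myogenin (13.7 to 21.4%), in 18.0% of those met by Pol II S2P (16.2 to 19.9%) and in 19.7% of those met by TDP-43 (16.5 to 23.4%). The CACCTG form stood in 20.2% of all windows, in 22.6% of those met by MyoD (20.6 to 24.7%), 24.7% for Myogenin (20.6 to 29.4%), 22.1% for Pol II S2P (20.2 to 24.2%) and 25.3% for TDP-43 (21.7 to 29.3%). TGTGTG, the DNA form of the repeat that TDP-43 binds in RNA, or its complement, stood in 21.1% of all windows and in 22.3% of the 502 met by TDP-43 (18.9 to 26.2%). The windows met by a list were richer in G and C, with medians of 56.7% to 60.2% against 52.7% over all windows. Wilson intervals here and below cover counting error of windows, peaks or genes alone, since no antibody had a replicate library.

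The 4 antibodies rarely marked the same place. Merging overlapping peaks gave 264122 sites, of which 97.5% belonged to a single antibody. A further 6318 sites held peaks of 2 antibodies, 232 of 3 and 8 of all 4. Of the TDP-43 peaks, 10.5% overlapped a peak of any other list by 1 bp or more, against 5.87% for Myogenin, 4.54% for Pol II S2P and 3.93% for MyoD. With lists of equal length the TDP-43 share was 3.26% and that of Pol II S2P 3.09%, with overlapping intervals, against 2.01% for Myogenin and 1.56% for MyoD.

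TDP-43 met Pol II S2P more often than it met either myogenic factor. Of its 24960 peaks, 1640 met a Pol II S2P peak, a share of 6.57% (95% Wilson interval 6.27 to 6.88%). MyoD peaks met 3.68% of them (3.46 to 3.92%) and Myogenin peaks 0.994% (0.878 to 1.12%). Counted from the other side, TDP-43 met 1.21% of the Myogenin peaks (248 of 20441). The remaining pairs were MyoD with Pol II S2P at 2.89% of MyoD peaks, Myogenin with Pol II S2P at 3.24% of Myogenin peaks, and Myogenin with MyoD at 1.70% of Myogenin peaks (348 peaks). A share depends on how much genome the other list covers. For each pair it was therefore set beside the share of the genome close enough to a peak of the other list to be met, 1.86% for TDP-43 peaks against Pol II S2P. The observed share was 2.30 to 4.54 times that value over the 12 ordered comparisons, lowest between MyoD and Pol II S2P and highest between TDP-43 and Myogenin in the full lists.

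At equal list length the order of the pairs changed. Each list was cut to its 20441 best scores, the length of the Myogenin list. The cut kept 81.9% of the TDP-43, 18.7% of the MyoD and 17.6% of the Pol II S2P peaks. In the full lists MyoD with Pol II S2P shared the most, 3169 MyoD peaks, against 1640 TDP-43 peaks for TDP-43 with Pol II S2P. At equal length TDP-43 and Pol II S2P shared the most, 343 of 20441 (1.68%, interval 1.51 to 1.86%). TDP-43 and Myogenin came next with 213 (1.04%, 0.912 to 1.19%). Myogenin with Pol II S2P (154, 0.753%, 0.644 to 0.882%), MyoD with Pol II S2P (152, 0.744%, 0.635 to 0.871%) and TDP-43 with MyoD (130, 0.636%, 0.536 to 0.755%) had overlapping intervals. The related factors MyoD and Myogenin shared the fewest peaks, 49 of 20441 (0.240%, 0.181 to 0.317%), and their interval lay below the other 5. Against the share of the genome within reach, TDP-43 with Pol II S2P was now highest at 5.13 times and MyoD with Myogenin lowest at 2.13 times. At this length 979 sites held 2 antibodies, 23 held 3 and none held 4. The limit fell among peaks of equal score: 6245 for TDP-43 (6 tags), 5086 for Pol II S2P (16 tags) and 2275 for MyoD (35 tags). Which of these entered followed the order of chromosome and position, not their strength. Peaks at the limit made up 13.0%, 9.07% and 8.31% of the cut lists in that order.

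**Figure D1:**
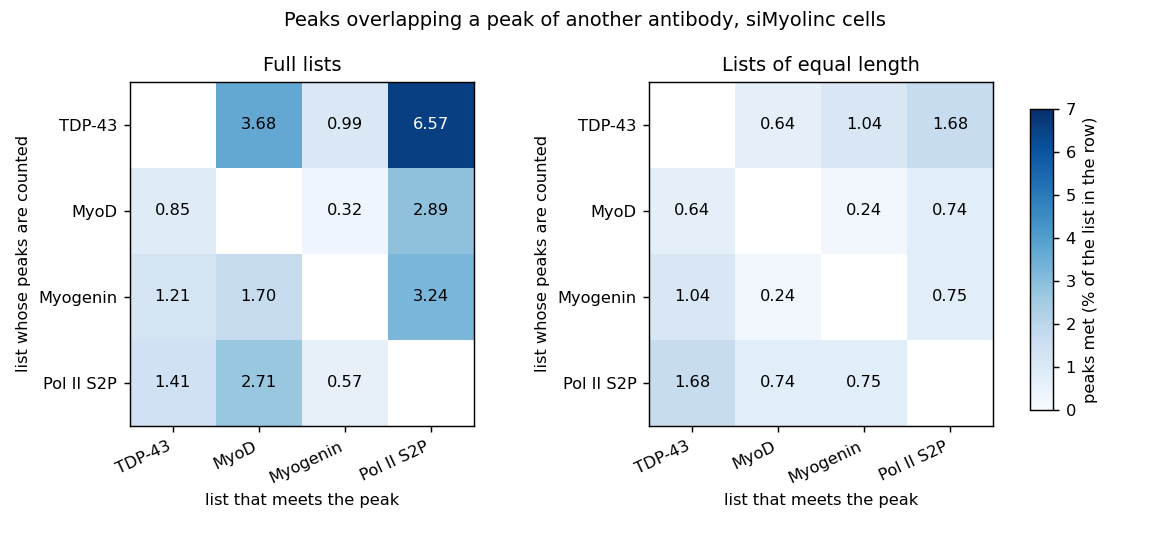
Percentage of each list's peaks (rows) that overlap a peak of another list (columns) by 1 bp or more, for the full lists and for the 20441 best-scored peaks of each. TDP-43 peaks met by Pol II S2P form the darkest cell in both panels, and MyoD with Myogenin the lightest at equal length.

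MyoD and Myogenin peaks that met a wider TDP-43 or Pol II S2P peak mostly lay within it, while peaks of like width met in part. The median shared stretch was 75 bp, a whole MyoD or Myogenin peak, in the 4 pairs of a myogenic factor with TDP-43 or Pol II S2P. It was 140 bp for TDP-43 with Pol II S2P. MyoD and Myogenin peaks that met shared a median of 39 bp of their 75, and their centres were 36 bp apart. Both peaks of a pair carried the same annotation class in 90.3% to 95.01% of meetings.

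The share of peaks met by another antibody rose with score in the TDP-43 list and in the Pol II S2P list. Among TDP-43 peaks, 15.2% of the 10% with the best scores were shared (13.9 to 16.7%), against 8.41% of the last 10% (7.39 to 9.57%). For Pol II S2P these shares were 6.16% (5.74 to 6.61%) and 3.37% (3.06 to 3.71%). MyoD peaks were shared at 3.70% to 4.21% in every 10% step of the list, with overlapping intervals at both ends of the list. Myogenin peaks ranged from 4.50% in the first such step to 6.85% in the sixth. The tags of the peaks did not separate shared from single sites in the lists as a whole. The median was 7 tags in both kinds of TDP-43 peak, 23 tags in shared and 24 in single MyoD peaks, 131 and 137 for Myogenin, and 12 and 11 for Pol II S2P.

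**Figure D2:**
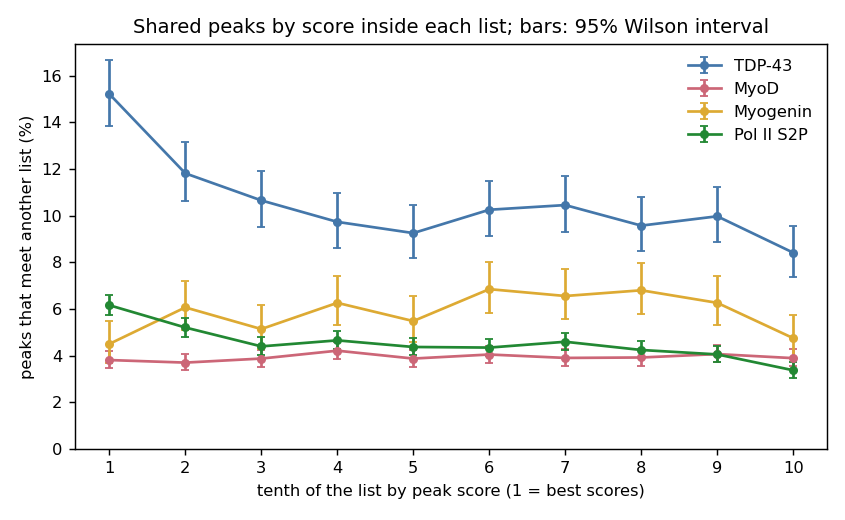
Percentage of peaks that meet another list (vertical axis) in 10 equal parts of a list ordered by peak score (horizontal axis, 1 for the best scores), with 95% Wilson intervals. The TDP-43 line falls from 15.2% to 8.41% and the Pol II S2P line from 6.16% to 3.37%, while the MyoD line stays between 3.70% and 4.21%.

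Shared peaks lay in exons more often than peaks of a single antibody did, in all 4 lists. Of the shared TDP-43 peaks, 15.3% lay in exons (14.0 to 16.7%), against 5.94% of the TDP-43-only peaks (5.64 to 6.26%). The same shares were 15.1% and 5.70% for Myogenin, 11.5% and 3.39% for Pol II S2P, and 9.77% and 3.43% for MyoD. At equal length the exon share was again higher in shared peaks of all 4 lists, from 11.3% against 3.44% for MyoD to 19.2% against 7.15% for TDP-43. Exon shares by partner were close for TDP-43, at 15.5% of its peaks met by MyoD, 19.0% of those met by Myogenin and 15.5% of those met by Pol II S2P. Their intervals overlapped.

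Intergenic peaks took the smaller share among shared sites. They made up 36.3% of shared and 48.1% of single TDP-43 peaks, 39.3% and 50.1% for MyoD, 35.1% and 48.8% for Myogenin, and 39.5% and 50.1% for Pol II S2P. Introns held 38.5% to 41.2% of shared peaks and 39.0% to 41.7% of single ones, and their intervals overlapped in 3 of 4 lists, the exception being Pol II S2P. The 3′ UTR share was also higher among shared peaks in all 4 lists, at both lengths.

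Promoters held more of the shared than of the single peaks in the full lists. The shares were 4.60% and 2.29% for TDP-43, 5.18% and 2.59% for MyoD, 5.09% and 2.98% for Myogenin, and 4.41% and 1.88% for Pol II S2P. At equal length Pol II S2P alone kept intervals that did not overlap, at 3.48% and 2.04%. Shared and single peaks had 3.0% and 2.55% in promoters for TDP-43, 3.45% and 1.76% for MyoD, and 2.93% and 3.11% for Myogenin.

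**Figure D3:**
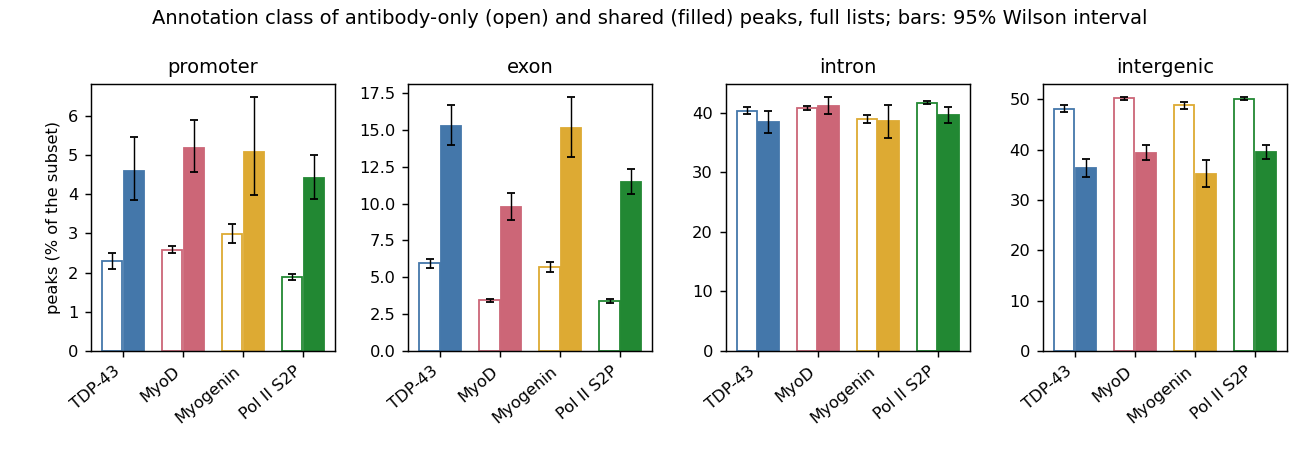
Percentage of peaks in 4 annotation classes (vertical axes, each with its own scale from 0) for antibody-only peaks (open bars) and peaks shared with any other list (filled bars), full lists, with 95% Wilson intervals. Filled bars are higher for promoters and exons and lower for intergenic peaks in all 4 lists.

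Taken as whole lists, the annotation classes of the 4 antibodies lay close together. Introns held 38.9% to 41.6% and intergenic sequence 46.9% to 49.7% of the peaks of every list. Promoters held 3.10% of Myogenin, 2.69% of MyoD, 2.53% of TDP-43 and 2.00% of Pol II S2P peaks. Exons held 6.93% of TDP-43 and 6.25% of Myogenin peaks, but 3.76% of Pol II S2P and 3.68% of MyoD peaks. At equal length the MyoD promoter share dropped to 1.79% (1.62 to 1.98%), so that its best-scored peaks lay in promoters less often than its list as a whole. The Pol II S2P exon share was 5.54% at that length (5.24 to 5.86%) and the MyoD share 3.56% (3.32 to 3.82%).

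Shared peaks lay closer to transcription starts. The median distance was 33864 bp for single and 21774 bp for shared TDP-43 peaks, 38332 and 22939 bp for MyoD, and 35700 and 18406 bp for Myogenin. At equal length the medians for single and shared peaks were 31733 and 20851 bp for TDP-43, 40087 and 23994 bp for MyoD, 34832 and 19815 bp for Myogenin, and 32709 and 21399 bp for Pol II S2P. The 49 MyoD peaks met by Myogenin had a median of 38356 bp at that length, near that of single MyoD peaks. Peaks beyond 100 kb from any start made up 14.9% to 18.5% of shared and 25.1% to 28.5% of single peaks in the full lists. Within 1 kb of a start lay 11.1% of shared and 5.58% of single Myogenin peaks, the widest such difference of the 4 lists. In Myogenin at equal length that difference was 7.80% and 5.87%, with overlapping intervals.

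LINE and SINE repeats were thinner among shared sites, while some rarer repeats were not. In the detailed annotation, LINE elements took 7.22% of shared and 10.1% of single TDP-43 peaks, 6.65% and 11.9% for MyoD, 5.75% and 11.7% for Myogenin, and 6.82% and 10.7% for Pol II S2P. SINE elements went the same way, at 6.05% and 10.99% for TDP-43 and 9.04% and 13.6% for Pol II S2P. Satellite repeats took more of the shared than of the single peaks of MyoD (0.326% and 0.150%) and Myogenin (0.667% and 0.244%) in the full lists, with overlapping intervals in lists of equal length, as SINE elements of MyoD peaks also had. Repeats outside the main classes did so in all 4 lists, from 1.05% and 0.564% for MyoD to 1.58% and 0.696% for Myogenin. CpG islands were more frequent among shared peaks, with 2.36% and 0.640% for TDP-43, 2.02% and 0.716% for MyoD, 2.67% and 0.987% for Myogenin, and 1.69% and 0.394% for Pol II S2P. At equal length the CpG island difference held for 3 lists, and MyoD had 0.313% and 0.224% with overlapping intervals.

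Simple TG or CA repeats, which spell the TDP-43 recognition letters in DNA, were not a mark of the TDP-43 list. They were annotated at 155 of its peaks, 0.621% (0.531 to 0.726%), at 0.621% of Pol II S2P (0.578 to 0.668%), 0.829% of MyoD (0.777 to 0.885%) and 1.01% of Myogenin peaks (0.884 to 1.16%). At equal length the order was Myogenin with 207 peaks, TDP-43 with 117, Pol II S2P with 34 and MyoD with 19 of 20441. The well-scored MyoD and Pol II S2P peaks thus held fewer of these repeats than the TDP-43 peaks, and the Myogenin peaks more. Of the TDP-43 peaks at TG or CA repeats, 11 of 155 were shared with another list.

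The 8 sites of all 4 antibodies were 269 to 414 bp long, and in none did the 4 peaks have a base in common. In each the peaks were chained, with neighbours overlapping. By the class of the TDP-43 peak, 4 lay in introns, 2 in exons, 1 in a promoter and 1 in intergenic sequence. Of their 32 peaks, 19 were within the equal-length lists. These were all the TDP-43 and Myogenin peaks, the MyoD peaks nearest Melk and Oosp2, and the Pol II S2P peak nearest Mir6364. The Myogenin list was not cut. The best-ranked site lay in intron 12 of 17 of Melk, a mitotic kinase gene (chr4:44340665-44340933), where TDP-43 had 8 tags, MyoD 41, Myogenin 207 and Pol II S2P 12. The 4 peaks there stood between percentile 60.0 and 92.1 of their lists, the percentile being the share of a list at or below a score. The second lay in intron 1 of 24 of Asap3, which encodes a GTPase-activating protein for Arf (chr4:136219013-136219420), with 12, 25, 129 and 15 tags in the same order. The third was the Prf1 promoter, with 6, 16, 178 and 11 tags (site chr10:61297488-61297901).

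Exons held 2 of the 8 sites. In exon 3 of 4 of Kcns1, a potassium channel gene (chr2:164167925-164168301), TDP-43 had 11 tags, MyoD 11, Myogenin 122 and Pol II S2P 10. In exon 2 of 2 of Tor4a, a torsin-family gene (chr2:25195361-25195773), they held 10, 8, 113 and 13. Both MyoD peaks were in the lowest part of their list, at percentiles 12.3 and 5.88. LINE-1 repeats carried 2 sites, of which 1 was intergenic with AA545190 as the nearest gene (chr6:10225740-10226040). The other lay in intron 3 of 4 of a transcript (chr19:11670569-11670901). It had Oosp2 as the gene of the nearest start, with peak centres from -10233 to -10047 bp of it. The last site lay in intron 5 of 39 of another gene and had Mir6364 as the gene of the nearest start, with peak centres from -40200 to -40003 bp of it (chr2:166632409-166632752).

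**Figure D4:**
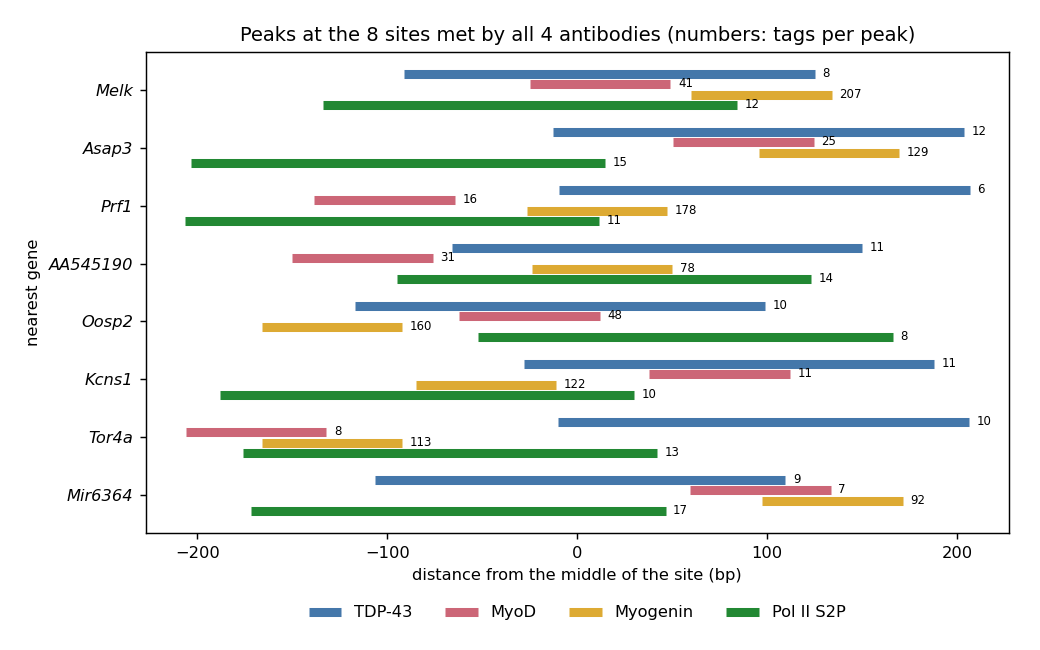
Peaks of the 4 antibodies at the 8 sites where all 4 lists met, drawn to scale by distance from the middle of each site (horizontal axis, bp), with the tags of each peak beside it. No vertical line crosses all 4 bars at any site, and TDP-43 peaks hold 6 to 12 tags where Myogenin peaks hold 78 to 207.

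Most sites of 3 antibodies in the full lists lacked Myogenin, the shortest list. TDP-43, MyoD and Pol II S2P met at 137 of the 232, MyoD, Myogenin and Pol II S2P at 43, TDP-43, Myogenin and Pol II S2P at 31, and TDP-43, MyoD and Myogenin at 21. In lists of equal length the 23 such sites were divided 10, 2, 8 and 3 in the same order. The best-scored peak lay in an exon at 54 of the 232 (23.3%) and in a promoter at 10 (4.31%). At the promoter of Prr5, a gene of the mTORC2 complex, TDP-43 had 12 tags, MyoD 49 and Pol II S2P 17, and all 3 stood above percentile 87 of their lists. No other promoter ranked as high for 3 antibodies.

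Promoter peaks named 546 protein-coding genes for TDP-43, which is 2.49% of 21900. MyoD named 2457 (11.2%), Myogenin 538 (2.46%) and Pol II S2P 1947 (8.89%). Of the 4826 genes with a promoter peak of any antibody, 4207 had a single antibody, 579 had 2, 37 had 3 and 3 had all 4. Those 3 were Prf1, Pgrmc1, which encodes a heme-binding membrane protein, and Myl6b. MyoD and Pol II S2P shared 321 promoter-bound genes, 13.1% of the MyoD and 16.5% of the Pol II S2P genes, and their peaks overlapped at 128 of these. MyoD and Myogenin shared 101, 4.11% of the MyoD and 18.8% of the Myogenin genes, with overlapping peaks at 20. TDP-43 shared 101 with MyoD (18.5% of its genes, 39 with overlapping peaks), 94 with Pol II S2P (17.2%, 47 overlapping) and 23 with Myogenin (4.21%, 7 overlapping). Myogenin and Pol II S2P had 68 genes in common, 12.6% of the Myogenin genes, with overlapping peaks at 21. In lists of equal length 1597 genes had a promoter peak, 1525 of a single antibody, 69 of 2, 3 of 3 and 0 of all 4. MyoD and Myogenin then shared 8 genes, 2.46% of the MyoD genes, where Myogenin named 2.46% of all protein-coding genes. TDP-43 shared 20 with Myogenin, 15 with Pol II S2P and 11 with MyoD. These were 4.47%, 3.36% and 2.46% of its genes, where those lists named 2.46%, 1.65% and 1.48% of all protein-coding genes. Pol II S2P shared 17 with Myogenin and 7 with MyoD. These were 4.70% and 1.93% of its genes, against the same 2.46% and 1.48% of all genes.

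At Myl6b, TDP-43 had 6 tags, MyoD 9, Pol II S2P 12 and Myogenin 257. The Myogenin peak lay at -737 bp from the start and met none of the other 3. At Pgrmc1, TDP-43 had 6 tags, MyoD 18, Myogenin 122 and Pol II S2P 8, and the TDP-43 and Myogenin peaks overlapped. Next by rank among the genes of 3 antibodies came Prr5, Dpp6, Trex2, Ap5s1, Usp1, Plekhg4 and Cbx5, the last encoding heterochromatin protein 1 alpha. At Dpp6, a potassium channel subunit gene, the TDP-43, MyoD and Myogenin peaks were at 3 different starts of the gene.

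The best shared promoter peaks of each pair came from varied genes. TDP-43 and MyoD met at Prr5 and at Tspyl3, with 9 and 38 tags. TDP-43 and Myogenin met at the start of Timp1, an inhibitor of metalloproteinases (10 and 233 tags, peak centres within 19 bp of the start), and at Csf3r, the receptor of a granulocyte growth factor (7 and 140 tags). TDP-43 and Pol II S2P met at the microRNA gene Mir666 (12 and 25 tags) and at Gm14204. MyoD and Pol II S2P met at Brms1, a chromatin repressor gene (47 and 26 tags). Myogenin and Pol II S2P met at Lamtor5, part of the lysosomal Ragulator complex (226 and 16 tags), and at Mmp25, a membrane metalloproteinase gene (168 and 17 tags). MyoD and Myogenin met at the noncoding gene 4930563M20Rik with 25 and 231 tags. None of these belonged to the fixed lists of muscle genes, which hold 75 of the 21900 protein-coding genes.

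Promoter peaks of a single antibody with the best scores were, for TDP-43, those of Ddn (16 tags), Mir7005 (16), Speg (15), Ppp2r5a (15) and Tnk2os (15). Speg encodes a kinase of striated muscle and its peak centre lay at -879 bp from the start. For MyoD they were Rab43 (80 tags), Iffo1 (65), Mir154 (64), Dfnb59 (63) and Sfi1 (60). For Myogenin they were Tspan2 (390 tags), Mog (342), Olfr133 (309), Mir6366 (300) and Phf20 (289), of which Mog is a gene of myelin and Olfr133 an olfactory receptor gene. For Pol II S2P they were Olig2, a transcription factor gene of the oligodendrocyte lineage (46 tags), Mir490 (38), Flywch2 (36), Podnl1 (36) and Pebp4 (34). None of the 20 belonged to the fixed muscle lists.

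The best antibody-only MyoD peaks of any class were annotated to repeats present in many copies. The first, with 315 tags, lay in satellite sequence whose nearest gene is Lrrc4c (chr2:98662635-98662709), and the second, with 196 tags, in ribosomal RNA sequence near Esp38. The best Pol II S2P-only peak, with 76 tags, lay in a B1 element inside intron 4 of 32 of Sfi1. Whether tags there came from other copies was not tested. Lrrc4c, a synaptic adhesion gene with a span of 1314 kb, was also the gene named by most MyoD peaks (104) and most Myogenin peaks (25). Of these, 97 MyoD peaks and all 25 Myogenin peaks were intergenic. The gene named by the most TDP-43 peaks was Tafa5 (20 peaks, 17 of them intergenic), and by the most Pol II S2P peaks Sorcs3 (80 peaks, 40 of them intergenic). Both are genes of the nervous system. Ctnnd2 (19 peaks) and Irx3 (17 peaks) followed for TDP-43. Lrrc4c, Tafa5 and Sorcs3 each had peaks in all 4 lists.

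Muscle genes were read from 4 fixed lists of 75 genes in all. MyoD had promoter peaks at 15 (20.0%, interval 12.5 to 30.4%, against 11.2% of all protein-coding genes). Pol II S2P had them at 9 (12.0%, 6.44 to 21.3%, against 8.89%), TDP-43 at 3 (4.0%, 1.37 to 11.1%, against 2.49%) and Myogenin at 1 (1.33%, 0.236 to 7.17%, against 2.46%). Only the MyoD interval lay above the share of all genes. At equal length MyoD kept 4 of the 75, TDP-43 2, Myogenin 1 and Pol II S2P 1, where the shares of all protein-coding genes were 1.48%, 2.04%, 2.46% and 1.65%. The TDP-43 genes were Tmod1, a cap of actin filament ends (7 tags), Mylpf, the fast regulatory myosin light chain (6 tags), and Synpo2l, a Z-disc protein (7 tags). The Myogenin gene was Myom3, an M-band protein (92 tags).

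The highest MyoD promoter score among the muscle genes belonged to Tcap, which encodes the titin cap of the Z-disc, with 55 tags. Myl4 (41 tags), Tnnt3 (38), Myom2 (36) and Tmod1 (33) followed. Pol II S2P peaks stood at the promoters of Cacnb1 (17 tags), Tnnt3 (16), Jph2 (14) and Tpm1 (13). Of the 75 genes 5 had promoter peaks of 2 antibodies (6.67%, against 2.83% of all protein-coding genes with 2 or more). At Tnnt3, fast skeletal troponin T, the whole MyoD peak lay inside the Pol II S2P peak (chr7:142498627-142498701). The same held at Cacnb1, a calcium channel subunit of excitation-contraction coupling. At Tmod1, Jph2 and Chrng the best peaks stood 162, 762 and 229 bp apart.

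Myogenic regulators, a list of 32 genes, had promoter peaks of MyoD at 9 genes (28.1%, against 11.2% of all protein-coding genes), of Pol II S2P at 6 (18.8%, against 8.89%) and of Myogenin at 2 (6.25%, against 2.46%). TDP-43 had none, where its share of all genes was 2.49%. At equal length MyoD kept 2 of the 32, Myogenin 2, Pol II S2P 0 and TDP-43 0. The shares of all genes were then 1.48%, 2.46%, 1.65% and 2.04%. No interval was computed for a list as small as this or those below. The MyoD genes by score began with Srf, serum response factor (42 tags), Filip1 (39 tags), Tcf12, an E-protein partner of MyoD (34 tags), and Myocd, myocardin (26 tags). The Myogenin genes were Filip1 (172 tags) and Myocd (122 tags), and both were also MyoD genes. The MyoD and Myogenin peaks were 65 bp apart at Filip1 and 394 bp apart at Myocd. Filip1 lies beside Myolinc, and the lists were chosen with earlier results of these data known. The MyoD and Myogenin counts of this list both include it. At Mef2d, which encodes a partner factor of the MyoD family, MyoD (22 tags) and Pol II S2P (8 tags) overlapped by 51 bp.

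Among lists outside muscle, neuronal and synaptic genes had 8 of 30 promoters with a Pol II S2P peak (26.7%, against 8.89% of all protein-coding genes). MyoD had a peak at 5 (16.7%, against 11.2%). At equal length Pol II S2P kept 2 of the 30 and MyoD 0, where the shares of all genes were 1.65% and 1.48%. Nrxn3 and Rbfox3 each had 17 Pol II S2P tags, and a Myogenin peak of 156 tags at another start of Rbfox3 met a weaker Pol II S2P peak there. The 20 hepatocyte genes had none in any list. In the next 4 lists the shares stood between 6.67% and 12.9% for MyoD and Pol II S2P, near those of all genes, and counts of TDP-43 and Myogenin were 0 or 1, where 2.49% and 2.46% of all genes had a peak. Genes of TDP-43 and other RNA-binding proteins, 31 in all, had 4 peaks of Pol II S2P, led by Celf1 (21 tags), 3 of MyoD, led by Elavl1 (47 tags), 1 of Myogenin at Ptbp2 and none of TDP-43. Genes of transcription elongation, 30 in all, had 3 of MyoD, 3 of Pol II S2P, 1 of TDP-43 at Supt4a (7 tags) and none of Myogenin. Cell cycle genes had 3 of 30 for MyoD and 2 for Pol II S2P, and adipocyte and osteoblast genes 2 of 20 for each. Over all 268 list genes, 73 had a promoter peak, where 22.0% of all protein-coding genes had one, and 12 had peaks of 2 antibodies, where 2.83% of all had 2 or more. At 5 of these 12 the peaks overlapped.

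**Figure D5:**
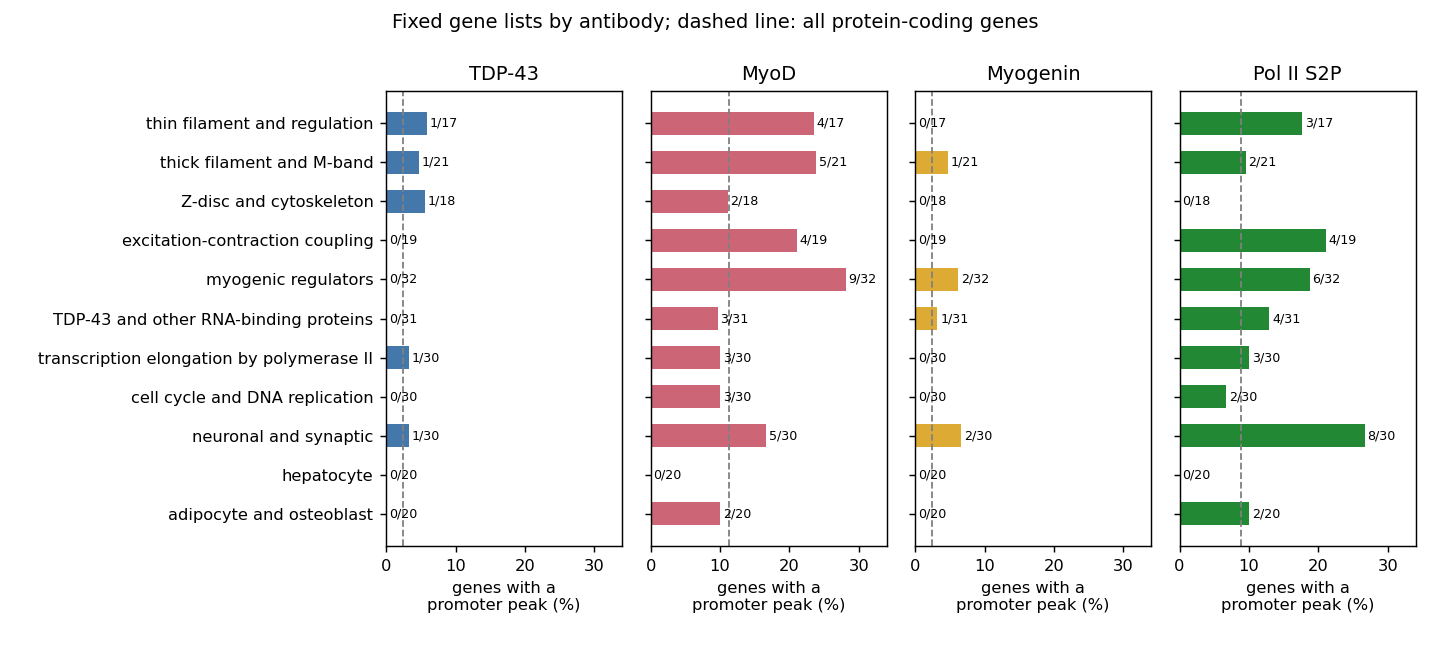
Percentage of the genes in each of 11 fixed lists with a promoter peak (horizontal axis), by antibody, with the number of genes beside each bar and a dashed line at the share of all protein-coding genes. Bars rest on 0 to 9 genes, and the hepatocyte list has none in any panel.

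No list had a promoter peak at Myod1, Myog or Tardbp, the genes of MyoD, Myogenin and TDP-43. Myod1 had 6 MyoD peaks, the closest at -9956 bp from its start (47 tags), 2 Myogenin peaks, 4 Pol II S2P peaks and none of TDP-43. Myog had 5 MyoD peaks, the closest at -4273 bp (35 tags), 1 Myogenin and 1 TDP-43 peak, and none of Pol II S2P. The TDP-43 peak, 13566 bp downstream of the start (5 tags), and a MyoD peak of Myog met a peak of another list, while the Myogenin peak met none. Tardbp, which encodes TDP-43, had 1 Myogenin peak in its 3′ UTR region (150 tags) and 1 Pol II S2P peak at -1296 bp (6 tags). Acta1, skeletal muscle actin, had a Pol II S2P promoter peak at -153 bp from its start (11 tags), while its closest MyoD peak (37 tags) lay 524 bp downstream of the start. Cdkn1a, the cell cycle inhibitor p21, had a Pol II S2P promoter peak at -913 bp (15 tags), 1 MyoD peak 3684 bp downstream (34 tags) and no peak of TDP-43 or Myogenin.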

How the data were processed

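ChIP-seq was measured in C2C12 cells with 1 siMyolinc library per antibody. Peaks were called against IgG, per the file headers, and carry HOMER annotations on mm10, per the submitters' processing notes. The aligner was not given in the sources used here, nor were the calling settings and the HOMER version. The deposited peak score is the authors' own score for each peak and was used only within its list. The focus ratio deposited with each peak is a fraction and served as a description.

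Score steps (2.65 to 3.29) gave whole tags for 100% of the peaks in every list, within 0.1 score units. The 10000000-tag scaling is stated in no header. Overlaps were counted at 1 bp or more. Equal-length lists kept the 20441 best scores, with ties ordered by chromosome and position. Sites are merged overlapping peaks. A promoter peak carries the deposited class promoter-TSS, and its gene is the nearest gene named, which was the annotated gene in 89.4% to 91.5% of cases. Of 21987 gene identifiers, 21933 were found in the gene table (GRCm38.p6). Shares of peaks, of promoter windows and of the 75 muscle genes carry 95% Wilson intervals. Overlap counting was checked on simulated lists. Python 3.11.15, pandas 2.3.3, numpy 2.4.6 and scipy 1.17.1 were used.

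Alternatives were equal length, an overlap of 50% of the shorter peak, peaks extended by 500 bp, peaks outside repeats, peaks scored at least at their list's median, and promoters as centres within 1000 bp of a start. Genes named in the text were drawn from the 8 sites of all 4 antibodies and the 2 best shared promoter peaks per pair. Further sources were the 5 best antibody-only promoter peaks and 2 best of any class per antibody, and the 3 genes with most peaks per antibody. Others were up to 10 genes with promoter peaks of 3 or 4 antibodies, and the best members of each of 11 gene lists (268 genes). Filip1, Myod1, Myog, Tardbp, Acta1 and Cdkn1a were always named. Not every gene of these sources is named in the text. The promoter windows of Trex2 and Morf4l2 and the list genes with overlapping peaks were picked after their values were seen. The comparison, gene lists and rules were chosen with earlier results of these data known. Control, input and IgG libraries were not used here.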

Additional observations from a re-analysis of the deposited data

Results flagged for a closer look

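Peaks on the mitochondrial genome were left out of every comparison, yet 3 of the 4 lists held them: 4 for TDP-43, 19 for MyoD and 12 for Myogenin, against 0 for Pol II S2P. The 4 TDP-43 peaks were among the 10 best-scored of that list, with up to 433 tags, where the best nuclear TDP-43 peak had 50. All 4 met a mitochondrial peak of another list, as did 6 of the MyoD and 7 of the Myogenin peaks. The signal of the IgG library there was not analysed here.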

How the results depend on the processing

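Of 53 alternative values, 48 moved and 5 did not. A share had moved if it lay outside the interval of the main value, though its own interval could still overlap that one. Counts of sites have no interval and were among the 48. For the pair shares the direction of a change followed the setting. All 6 pair shares were lower at equal length, with the 50% overlap and with the better-scored peaks, and all 6 were higher with extended peaks and without repeats. At equal length the shares were 1.68% for TDP-43 with Pol II S2P, 1.04% for Myogenin with TDP-43, 0.753% for Myogenin with Pol II S2P, 0.744% for MyoD with Pol II S2P, 0.636% for TDP-43 with MyoD and 0.240% for Myogenin with MyoD. In that same order of pairs, an overlap of 50% of the shorter peak gave 4.33%, 0.925%, 2.49%, 2.26%, 2.95% and 0.895%. Peaks at or above the median score gave 4.38%, 0.808%, 2.11%, 1.89%, 1.91% and 0.779%, and peaks extended by 500 bp gave 18.8%, 4.55%, 15.6%, 15.1%, 15.8% and 14.9%. Without repeats the shares that moved were 6.97% for TDP-43 with Pol II S2P, 3.55% for Myogenin with Pol II S2P, 3.04% for MyoD with Pol II S2P, 4.02% for TDP-43 with MyoD and 1.90% for Myogenin with MyoD. Antibody-only shares, in the order TDP-43, then MyoD, then Myogenin and last Pol II S2P, were 96.7%, 98.4%, 98.0% and 96.9% at equal length, and 67.4%, 79.8%, 70.2% and 80.6% with extended peaks. Promoter shares in the same order were 4.76%, 4.79%, 5.90% and 3.68% when a promoter was a centre within 1000 bp of a start. The other promoter shares that moved were 1.79% for MyoD and 2.08% for Pol II S2P at equal length, and 2.05% for MyoD and 2.08% for Myogenin at or above the median score. At equal length the MyoD promoter share was thus lower than in the full list, and that of Pol II S2P higher. Sites of all 4 antibodies numbered 0 at equal length, 154 with extended peaks and 5 without repeats. No cause of these movements was tested, beyond equal lists and stricter overlaps holding fewer peaks that can meet.

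With 1 library per antibody, spread between cultures is unknown. The 5 or 6 tags of the weakest TDP-43 and Pol II S2P peaks limit what a missing overlap shows: a site absent from a list was not called there, which differs from a site that is not bound. No paired analysis was possible because each antibody had 1 library and no test across samples was made.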
